A study of Mus musculus with 18 samples.

Results

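The genes described here encode the folding machinery of the endoplasmic reticulum (ER) and the sensors of the unfolded protein response. A row of the count table was taken where its gene symbol was on a list of 37 symbols grouped by known function; the rule uses no measured value, but the list was drawn up with earlier results of these data known. All 37 were found among the 24527 entries of the table, and all 37 were among the 13827 genes that passed a filter on low counts. RNA was sequenced from 3 mouse pancreatic ductal adenocarcinoma lines, PD454, PD7591 and PD883, of mixed strain background. Cells of each line had spent 48 h in DMSO (the vehicle), in 2.5 µM ionomycin (a compound that makes membranes permeable to calcium) or in 10 ng/ml TGFb (a cytokine that can drive epithelial cells towards a mesenchymal state). Every one of the 9 groups held 2 libraries, so each treatment had 6 and the series 18. All lines grew in the same medium, which contained dexamethasone, cholera toxin and a pituitary extract in every group, DMSO included. The labels used here do not give the driver mutations of the lines or whether a line is a clone.

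Proteins that enter the secretory pathway fold inside the ER with the help of chaperones, lectins and disulfide isomerases, several of which bind calcium. When unfolded proteins build up, the sensors Ire1 (gene Ern1), Perk (Eif2ak3) and Atf6 signal to the nucleus and the genes of the folding and degradation machinery are transcribed. Misfolded proteins are pulled back into the cytosol and degraded, a route called ER-associated degradation. The sensors are switched on by cleavage, phosphorylation or mRNA splicing, none of which is read by a count per gene, and the counts do not separate spliced from unspliced Xbp1 mRNA.

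Library totals ran from 17591005 to 37894692 counts. Levels are given as CPM, counts scaled to an equal library size after TMM adjustment between libraries, and as CPM per kilobase of exon (RPKM) where genes are compared with each other. The labels do not say whether the 2 libraries of a group came from separate cultures. The p-values within lines, and for differences between lines, rest on the spread between duplicates, which may be technical only. Those over all lines also take in differences of the response between lines, but they count the 2 libraries of a group as independent. In bulk RNA, fewer expressing cells and less RNA per cell cannot be told apart. In 4 libraries, numbered 8 and 14 (DMSO) and 12 and 18 (TGFb) in the labels, long transcripts had lower relative counts (r of the log2 deviation with log2 transcript length from -0.196 to -0.0952, against -0.0519 to 0.137 in the 14 other libraries). The counts of genes over all lines were also made without them. All 10 ductal epithelial markers were detected, with a summed level of 4008 to 9726 CPM. With TGFb 5 of them fell and 3 rose, where 26.5% of all genes tested fell and 24.3% rose. Summed acinar (14 genes), endocrine (8) and endothelial (6) markers stayed at or below 6.55, 0.691 and 3.43 CPM in every library, with 5 acinar genes (Cpa1, Amy2b, Pnlip, Cela2a and Ptf1a) and 5 endocrine genes (Ins1, Ins2, Sst, Ppy and Iapp) at 0 throughout. The 10 fibroblast markers summed to 1.65 to 6.21 CPM outside TGFb, where they reached 8.24 to 102 CPM. The 9 immune markers summed to 3.14 to 5.93 CPM outside ionomycin, where they reached 9.07 to 29.5 CPM. With ionomycin, 1 of the 4 immune markers that could be tested rose (Cd68), as did all 3 such endothelial markers at their low levels. None of these fell, and 17.2% of all genes rose. These marker lists moved with the treatments, and their part in the results was not tested.

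With ionomycin, 24 of the 37 genes rose against DMSO and none fell, where 17.2% of all genes tested rose and 16.1% fell (33.3% in either direction). The median log2 fold change of the 37 genes was 0.36, against -0.034 for all genes. With TGFb, 8 of the 37 rose and 10 fell, and over all genes 24.3% rose and 26.5% fell (50.7% in either direction). The median of the 37 genes with TGFb was 0.059, against -0.0022 for all genes. The share that changed with TGFb was thus close to the background in both directions. When ionomycin was compared directly with TGFb, 22 genes were higher with ionomycin and 4 were lower. The shares of all genes were 31.0% and 31.9% there (62.9% in either direction), and the medians were 0.52 for the 37 genes and -0.037 for all genes. Without the 4 libraries with lower counts of long transcripts, 26 genes were higher and 0 lower with ionomycin. The counts were 9 and 8 for TGFb, and 23 and 5 for the direct comparison. Of all 13965 genes tested there, 2052 rose and 1715 fell with ionomycin, and 3287 rose and 3215 fell with TGFb. In the direct comparison 3978 of them were higher and 4125 lower.

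The summed level shows the same difference by library. The 37 genes together took 8650 to 8911 CPM in DMSO-treated PD7591, 10946 to 10996 in PD883 and 11938 to 13139 in PD454. With ionomycin the sum was 14665 to 14689 CPM in PD454, 15019 to 15265 in PD7591 and 14740 to 15374 in PD883. The 3 lines differed under DMSO and lay close together under ionomycin, and all 6 ionomycin libraries were above all 6 DMSO and all 6 TGFb libraries. With TGFb the sum was 11480 to 11483 CPM in PD454, below both DMSO libraries, 9380 to 9783 in PD7591, above both, and 9243 to 10049 in PD883, below both. Between 54.4% and 65.4% of this sum came from 6 genes: P4hb, Hspa5, Calr, Hsp90b1, Canx and Pdia3.

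**Figure D1:**
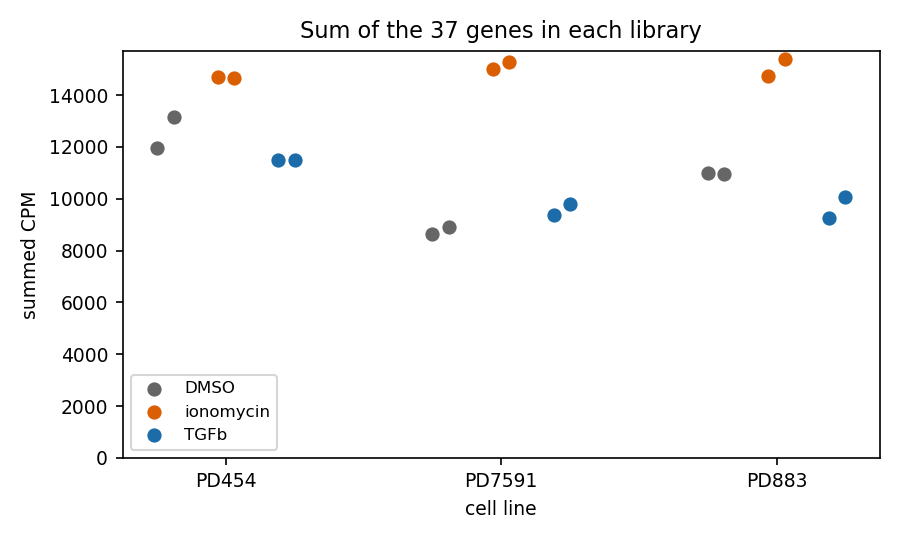
Summed TMM-scaled CPM (vertical axis, from 0) of the 37 genes in each of the 18 libraries, by cell line (horizontal axis) and treatment (colour); each point is 1 library. The ionomycin libraries lie between 14665 and 15374 CPM in all 3 lines, above every DMSO and TGFb library.

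Per kilobase of exon, the most abundant of the genes under DMSO was P4hb, the beta subunit of prolyl 4-hydroxylase and a disulfide isomerase, with a median of 453.6 RPKM (386 to 760). The calcium-binding lectin chaperone Calr followed with 338 RPKM (296 to 650). Hsp90b1 with 259 RPKM, Pdia3 with 247 and Hspa5 with 246 came next, and the ranges of these 3 genes and of Calr overlapped. The least abundant were the oxidase gene Ero1lb with 1.70 RPKM (1.56 to 2.56) and Derl3 with 0.181 RPKM (0.0219 to 0.332). Derl3 had only 1 to 22 counts in any library. Its log2 fold changes of 0.36 with ionomycin and 0.35 with TGFb (SE 0.52 and 0.51) were not detectable as differences at this depth.

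The promoters were searched for known elements of the stress response, a sequence trait that the choice of symbols did not use directly. The symbols were listed by known function in that response, so shared elements are not independent of the choice. RefSeq windows on GRCm38.p6 (250 bases before to 50 after the annotated start) were found for 32 of the 37 genes; none was used for Atf6, Hyou1, Hspa13, Derl1 and Manf. The ER stress element, CCAAT and CCACG with 9 bases between them, was in the window of 10 genes and in 0.119% of 32851 RefSeq windows, searched on both strands. The 10 genes were Calr, Canx, Creld2, Derl3, Dnajc3, Ero1lb, Hsp90b1, Hspa5, Pdia6 and Syvn1. The element and 10 bases on each side are shown for 6 of them, since they include the most abundant chaperones, an oxidase and a ubiquitin ligase; capitals mark the element, printed 5′ to 3′ on the strand that reads CCAAT first.
Hspa5, chr2:34772015-34772053, plus strand: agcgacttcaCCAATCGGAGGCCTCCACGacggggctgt
Hsp90b1, chr10:86705628-86705666, minus strand: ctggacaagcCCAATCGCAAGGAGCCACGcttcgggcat
Calr, chr8:84847065-84847103, plus strand: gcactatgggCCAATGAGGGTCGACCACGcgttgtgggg
Canx, chr11:50325790-50325828, minus strand: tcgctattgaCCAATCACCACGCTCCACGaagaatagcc
Ero1lb, chr13:12565672-12565710, minus strand: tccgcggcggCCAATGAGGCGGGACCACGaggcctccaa
Syvn1, chr19:6046522-6046560, plus strand: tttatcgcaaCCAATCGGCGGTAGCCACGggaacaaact
The Hsp90b1 window held a second copy on the other strand.

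A related element, ATTGG and CCACG with 1 base between them (ER stress element II), was in the windows of Herpud1 and Dnajb11 and in 0.0365% of all windows. Herpud1 was also the only one of the 32 genes with the C/EBP-ATF element TTGCATCA, which 0.895% of windows hold, and Txndc5 the only one with TGACGTGG (0.676%). The CCAAT box alone, which both ER stress elements contain on one strand or the other, was in 23 of the 32 genes and in 37.4% of windows. The 250 bases before the start are shown whole for Hspa5 and Herpud1, the chaperone and the degradation gene on which the results below turn, with the elements in capitals.
Hspa5, chr2:34771840-34772089, plus strand: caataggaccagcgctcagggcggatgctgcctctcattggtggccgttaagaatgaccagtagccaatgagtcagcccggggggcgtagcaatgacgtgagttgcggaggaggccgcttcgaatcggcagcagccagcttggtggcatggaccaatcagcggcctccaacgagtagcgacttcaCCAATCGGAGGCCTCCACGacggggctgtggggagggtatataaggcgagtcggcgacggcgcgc
Herpud1, chr8:94386179-94386428, plus strand: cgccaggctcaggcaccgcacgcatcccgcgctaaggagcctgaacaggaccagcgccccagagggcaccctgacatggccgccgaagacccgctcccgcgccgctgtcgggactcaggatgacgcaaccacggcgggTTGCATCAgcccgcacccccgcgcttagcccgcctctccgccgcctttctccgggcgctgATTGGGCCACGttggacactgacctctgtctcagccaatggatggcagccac
Of the 10 genes with the first element, 7 rose with ionomycin, with a median log2 fold change of 0.34. Of the 22 genes with a window but without it, 14 rose, with a median of 0.45. With TGFb, 1 of the 10 rose and 3 fell, and 6 of the 22 rose and 6 fell. An exact match is a description of letters and does not show that a factor was bound.

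Among the sensors and their transcription factors, Atf6, Ern1 and Atf6b rose with ionomycin, 3 of 5. Atf6, a membrane-bound factor that is cut and sent to the nucleus under stress, lay on chromosome 1 (GRCm38, 170704674 to 170867771, minus strand). Its level was 111 to 179 CPM with DMSO (median 139), 369 to 481 with ionomycin (median 457) and 82.5 to 126 with TGFb (median 101). All 6 ionomycin libraries were above all others, and the TGFb range overlapped the lower end of DMSO. The rise with ionomycin was 1.62 ± 0.13 (log2 fold change ± SE throughout, adjusted p = 4.95e-08), the largest of the 37 genes. With TGFb, Atf6 fell by 0.47 ± 0.12 (adjusted p = 0.00404).

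Ern1 encodes the kinase and ribonuclease that splices Xbp1 mRNA. It was at 40.0 to 98.2 CPM with DMSO (median 53.1), 91.5 to 170.5 with ionomycin (median 114) and 52.9 to 80.7 with TGFb (median 64.6). Within each line both ionomycin libraries exceeded both DMSO libraries, with 1.04 ± 0.13 over the lines (adjusted p = 9.24e-06). For TGFb the value was 0.17 ± 0.13 (adjusted p = 0.286). Atf6b, the paralog of Atf6, ranged over 78.1 to 131 CPM with DMSO (median 96.5), 81.8 to 201 with ionomycin (median 134) and 61.0 to 101 with TGFb (median 80.5), with overlap throughout. It rose by 0.40 ± 0.13 with ionomycin (adjusted p = 0.0236) and was at -0.28 ± 0.13 with TGFb (adjusted p = 0.0761). The ionomycin call of Atf6b was lost without library 4 or without library 9, both ionomycin (adjusted p 0.0550 to 0.0576). It was also lost without PD7591 (0.175), without PD883 (0.12) and with summed duplicates (0.159). The sensor kinase gene Eif2ak3 and the transcription factor gene Xbp1 passed in neither comparison. Eif2ak3 was the steadiest of the 5, between 39.2 and 53.3 CPM in all 18 libraries, and Xbp1 had log2 fold changes of 0.28 ± 0.13 with ionomycin (adjusted p = 0.103) and 0.19 ± 0.13 with TGFb.

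**Figure D2:**
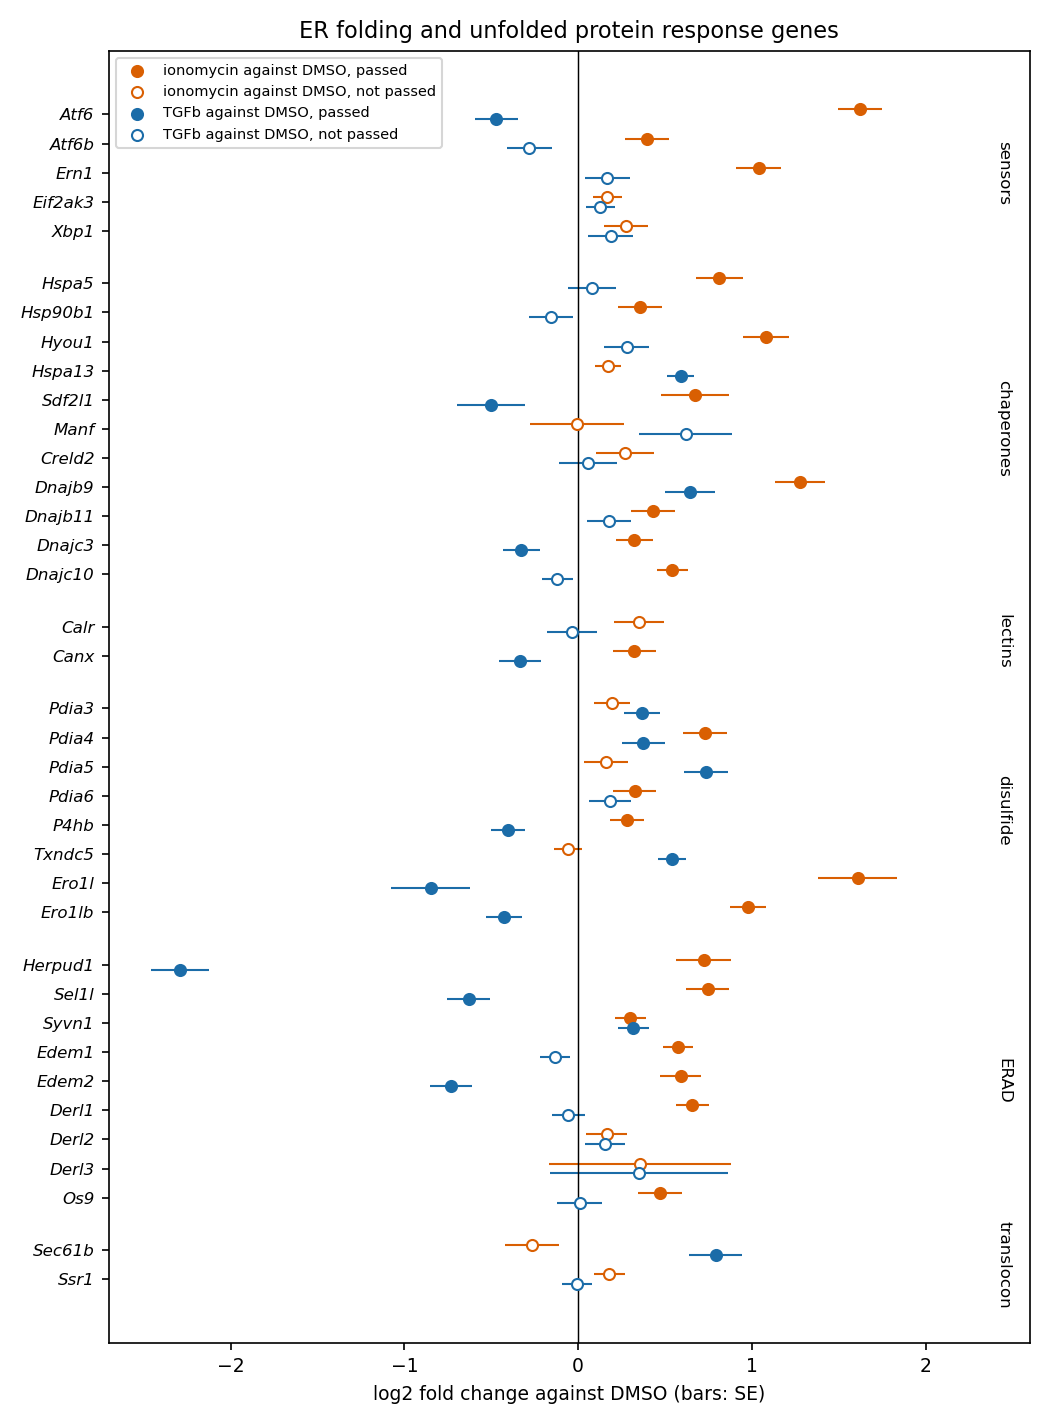
Log2 fold change against DMSO (horizontal axis, bars show SE) of each of the 37 genes, ordered by role, for ionomycin (orange) and TGFb (blue), from the model of treatment and line over 18 libraries. Filled points passed an adjusted p of 0.05: with ionomycin 24 genes lie to the right and 0 to the left, with TGFb 8 and 10.

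Of the 11 genes for chaperones of the Hsp70 and Hsp90 classes and their cofactors, 8 rose with ionomycin. Hspa5 encodes BiP, the main ER Hsp70, which also holds the sensors inactive. Its level was 686 to 1968 CPM with DMSO (median 1039), 1624 to 2354 with ionomycin (median 1886) and 832 to 1592 with TGFb (median 1137). The DMSO libraries of PD454, at 1564 and 1968 CPM, lay near or inside the ionomycin range, while those of PD7591 and PD883 reached at most 1093 CPM. Hspa5 rose by 0.81 ± 0.14 with ionomycin (adjusted p = 2.08e-04) and was at 0.08 ± 0.14 with TGFb (adjusted p = 0.648).

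Hyou1, a large Hsp70 relative that acts as the nucleotide exchange factor of BiP, was at 215 to 478 CPM with DMSO (median 364), 491 to 960 with ionomycin (median 694) and 269 to 663 with TGFb (median 423). Every ionomycin library was above every DMSO library, and the rise was 1.08 ± 0.13 (adjusted p = 7.61e-06). Dnajb9, a J protein that binds BiP and the sensor Ire1, rose from 9.22 to 21.5 CPM with DMSO (median 13.6) to 28.3 to 50.2 with ionomycin (median 32.4), again without overlap, by 1.28 ± 0.14 (adjusted p = 3.07e-06). With TGFb, Dnajb9 was at 15.3 to 27.5 CPM (median 23.3), overlapping DMSO, and rose by 0.64 ± 0.14 (adjusted p = 0.00100). It was thus higher with both treatments, and its ionomycin libraries were also all above its TGFb libraries (0.63 ± 0.14, adjusted p = 7.53e-04).

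The other rises with ionomycin among the chaperones were smaller. Sdf2l1, a partner of BiP in a chaperone complex, was at 53.4 to 142 CPM with DMSO (median 65.7), 86.3 to 185 with ionomycin (median 113) and 37.6 to 96.3 with TGFb (median 47.6), with overlap between treatments. It rose by 0.67 ± 0.20 (adjusted p = 0.0137), a call lost without PD7591 (0.240), without PD883 (0.0633), with no line term (0.193) and with summed duplicates (0.107). The J protein gene Dnajc10, whose product reduces disulfide bonds, rose by 0.54 ± 0.09. Dnajc10 was at 190 to 290.4 CPM with DMSO and 290.8 to 447 with ionomycin, so that the 2 ranges only just separated. Dnajb11 rose by 0.43 ± 0.13 (lost without PD7591, adjusted p = 0.222, with library totals, 0.0524, with no line term, 0.176, and with summed duplicates, 0.120). Hsp90b1 (the ER Hsp90, also called Grp94), whose exons overlap those of Gm15344, rose by 0.36 ± 0.13. The J protein gene Dnajc3 was at 149 to 192 CPM with DMSO (median 165), 163 to 286 with ionomycin (median 204) and 111 to 161 with TGFb (median 133), and rose by 0.32 ± 0.11 (adjusted p = 0.0243). The Hsp90b1 call was lost without any 1 of libraries 1, 2, 3, 4, 9 and 10 (adjusted p 0.0553 to 0.0926), and that of Dnajc3 without 1, 2, 3 or 10 (0.0554 to 0.0602). Both were also lost without PD7591 (0.466 and 0.274) and with summed duplicates (0.218 and 0.138), and that of Hsp90b1 without PD883 (0.15).

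With TGFb the chaperones divided. Hspa13, an Hsp70-class ATPase of microsomes, was at 56.4 to 97.1 CPM with DMSO (median 61.1), 59.2 to 117 with ionomycin (median 67.9) and 85.6 to 140 with TGFb (median 95.3). In each line both TGFb libraries were above both DMSO libraries, although the ranges over all lines overlapped. The rise was 0.59 ± 0.08 (adjusted p = 3.39e-06), against 0.17 ± 0.08 with ionomycin (adjusted p = 0.0888). Sdf2l1 fell by 0.50 ± 0.19 with TGFb (adjusted p = 0.0384) and Dnajc3 by 0.33 ± 0.11 (adjusted p = 0.0150), and for both genes the TGFb libraries of each line were below its DMSO libraries. Ionomycin against TGFb gave 1.17 ± 0.20 for Sdf2l1 (adjusted p = 5.23e-05) and 0.65 ± 0.11 for Dnajc3 (adjusted p = 3.43e-05). The TGFb call of Sdf2l1 was lost without any 1 of libraries 5, 6, 8, 10, 11, 13, 14 and 18 (adjusted p 0.0504 to 0.107), and that of Dnajc3 without 5, 8, 11 or 13 (0.0530 to 0.0596). Both were also lost without PD883 (0.148 and 0.118) and with summed duplicates (0.134 and 0.117). Leaving out the 4 libraries with lower counts of long transcripts also lost both calls (0.192 and 0.0744).

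Manf, a secreted stress-induced neurotrophic factor, and Creld2, a disulfide isomerase-like protein, passed in neither comparison. Manf had the widest difference between duplicates in 4 of the 9 groups, for example 100 and 203 CPM in the ionomycin libraries of PD7591. Its log2 fold changes were -0.01 ± 0.27 with ionomycin and 0.62 ± 0.27 with TGFb (adjusted p = 0.0625). The TGFb value of Manf passed in 13 of 33 alternatives (adjusted p from 0.0154 to 0.342 over all 33), among them DESeq2 and 7 that leave out 1 library (8, 14, 16, 4, 9, 11 or 12). The direct comparison (-0.63 ± 0.27, adjusted p = 0.0519) also passed in 13 of 33 (0.0101 to 0.474). Exons of Manf overlap those of Dcaf1, Rbm15b and an antisense transcript, and without the strand setting of the counting their reads cannot be told apart. Creld2 was at 0.27 ± 0.17 with ionomycin and 0.06 ± 0.17 with TGFb.

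The lectin chaperones hold newly made glycoproteins until they are folded. Canx, the membrane-bound calnexin, was at 610 to 1089 CPM with DMSO (median 879), 811 to 1416 with ionomycin (median 1001) and 563 to 817 with TGFb (median 654). The 3 ranges overlapped. Canx rose by 0.32 ± 0.12 with ionomycin (adjusted p = 0.0478) and fell by 0.33 ± 0.12 with TGFb (adjusted p = 0.0291). Both calls depended on single libraries: the first was lost without any 1 of 11 libraries (1, 2, 3, 5, 6, 7, 8, 10, 11, 14 and 18, adjusted p 0.0504 to 0.125) and the second without any 1 of 7 (1, 2, 5, 6, 11, 13 and 18, adjusted p 0.0658 to 0.135). The first was also lost without PD7591 (0.14) or PD883 (0.303), and the second without PD454 (0.0684) or PD7591 (0.254). Calr, the soluble calreticulin, was at 852 to 1871 CPM with DMSO (median 974), 1206 to 1605 with ionomycin (median 1448) and 800 to 1369 with TGFb (median 1095). The highest DMSO library, from PD454, exceeded all ionomycin libraries, and the log2 fold change of 0.35 ± 0.14 did not pass (adjusted p = 0.0653). It passed in 9 of 33 alternatives (adjusted p from 0.00266 to 0.642 over all 33), among them RLE factors, DESeq2, limma-voom and leaving out PD454, and, of single libraries, without library 14 (DMSO PD454, adjusted p = 0.00642) or without library 15 (ionomycin PD454, 0.0426). The lowest p was without the 4 libraries with lower counts of long transcripts (0.55 ± 0.11, adjusted p = 0.00266), where that of Canx with ionomycin was lost (0.208).

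Of the 8 genes for disulfide isomerases and oxidases, 5 rose with ionomycin. The oxidases Ero1l and Ero1lb, which pass oxidising equivalents to the isomerases, moved in opposite directions under the 2 treatments. Ero1l was at 137 to 458 CPM with DMSO (median 207), 573 to 1046 with ionomycin (median 689) and 82.4 to 254 with TGFb (median 108). The ionomycin libraries were above all others, and in PD883 the 2 TGFb libraries lay far apart, at 254 and 82.4 CPM. Ero1l rose by 1.61 ± 0.23 with ionomycin (adjusted p = 4.24e-05) and fell by 0.85 ± 0.23 with TGFb (adjusted p = 0.00433). Ero1lb was at 10.4 to 17.1 CPM with DMSO (median 11.3), 18.4 to 35.3 with ionomycin (median 21.8) and 6.64 to 12.1 with TGFb (median 8.70). In each line its libraries ordered ionomycin, DMSO, TGFb with no overlap between treatments. The rise was 0.98 ± 0.10 (adjusted p = 1.52e-06) and the fall with TGFb 0.43 ± 0.10 (adjusted p = 0.00231). The TGFb call of Ero1lb was lost without PD883 (0.0643), with no line term (0.0986) and with summed duplicates (0.0733).

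The isomerases did not move as one. Pdia4 rose with ionomycin by 0.73 ± 0.13 and with TGFb by 0.38 ± 0.13. P4hb was at 1105 to 2174 CPM with DMSO (median 1298), 1592 to 2042 with ionomycin (median 1726) and 978 to 1311 with TGFb (median 1051). In each line both TGFb libraries were below both DMSO libraries, and in 2 of 3 lines both ionomycin libraries were above them. P4hb rose by 0.28 ± 0.10 with ionomycin (adjusted p = 0.0355) and fell by 0.40 ± 0.10 with TGFb (adjusted p = 0.00238). Pdia6 rose by 0.32 ± 0.12 with ionomycin (adjusted p = 0.0466) and was at 0.18 ± 0.12 with TGFb, with no call in the direct comparison (0.14 ± 0.12, adjusted p = 0.312); its exons overlap those of Atp6v1c2. The ionomycin call of P4hb was lost without any 1 of libraries 1, 2, 3, 4, 13, 14 and 15 (adjusted p 0.0514 to 0.0964) and that of Pdia6 without any 1 of 1, 2, 3, 4, 5, 7, 9, 10 and 13 (0.0526 to 0.116). Both were also lost without PD7591 (0.413 and 0.371) and with no line term (0.305 and 0.547). That of P4hb was lost without PD454 too (0.163), and that of Pdia6 without PD883 (0.138). Without PD7591 the TGFb call of Pdia4 was lost (0.0994). The TGFb call of P4hb was lost without PD883 (0.0632) and with summed duplicates (0.0628).

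Txndc5, an isomerase with 3 thioredoxin domains, was at 238 to 307 CPM with DMSO (median 301), 238 to 328 with ionomycin (median 272) and 382 to 460.1 with TGFb (median 414). All 6 TGFb libraries were above all 12 others, with a rise of 0.54 ± 0.08 (adjusted p = 1.90e-05), against -0.060 ± 0.081 with ionomycin (adjusted p = 0.594). Its exons overlap those of Bmp6 on the other strand.

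Pdia5, another isomerase, was at 12.1 to 17.8 CPM with DMSO (median 13.4), 12.9 to 17.8 with ionomycin (median 16.2) and 18.3 to 27.1 with TGFb (median 24.2). The TGFb libraries again stood above all others, with a rise of 0.74 ± 0.13 (adjusted p = 8.40e-05). Pdia3, which works with the lectin chaperones and whose exons overlap those of Catsper2, rose by 0.37 ± 0.10 with TGFb (adjusted p = 0.00677; 0.114 without PD7591) and was at 0.19 ± 0.10 with ionomycin (adjusted p = 0.159).

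**Figure D3:**
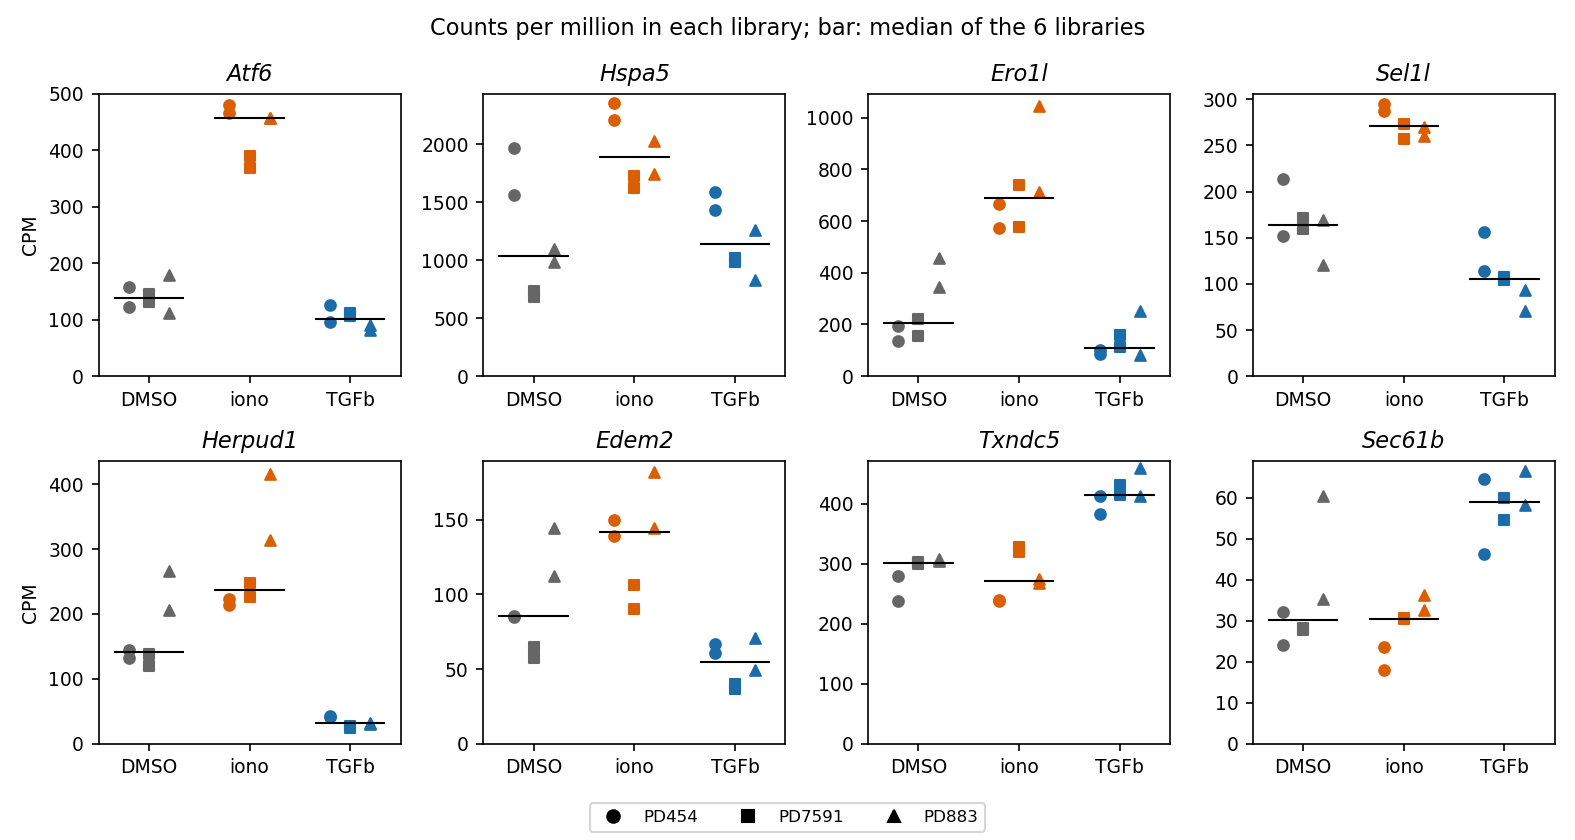
TMM-scaled CPM (vertical axes, each from 0) of 8 genes in the 18 libraries by treatment; each point is 1 library, its shape the line, and the bar the median of 6 libraries. Atf6, Ero1l and Sel1l separate ionomycin from DMSO without overlap, Herpud1 separates TGFb below DMSO, and Txndc5 separates TGFb above it.

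ER-associated degradation had 7 of its 9 genes higher with ionomycin: Derl1, Edem1, Edem2, Herpud1, Os9, Sel1l and Syvn1. Herpud1, on chromosome 8 (94386438 to 94395377, plus strand), encodes a membrane protein that organises the degradation complex. It was at 119 to 266 CPM with DMSO (median 141), 214 to 416 with ionomycin (median 237) and 23.9 to 43.3 with TGFb (median 31.4). Every TGFb library was below every other library, and in each line ionomycin was above DMSO. Herpud1 fell by 2.29 ± 0.17 with TGFb (adjusted p = 2.42e-09), a 4.89-fold lower level and the largest change of the 37 genes in either comparison with DMSO. With ionomycin it rose by 0.72 ± 0.16 (adjusted p = 0.00201), so that the 2 treatments differed by 3.01 ± 0.17, or 8.08-fold (adjusted p = 5.58e-11). The ionomycin call of Herpud1 was lost with summed duplicates (0.0539).

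Sel1l, the adaptor of the Hrd1 ligase complex, was at 121 to 214 CPM with DMSO (median 164), 257 to 295 with ionomycin (median 271.1) and 70.3 to 156 with TGFb (median 106). Its ionomycin libraries were above all others, while TGFb and DMSO overlapped. The rise was 0.75 ± 0.12 (adjusted p = 1.79e-04) and the fall with TGFb 0.63 ± 0.12 (adjusted p = 3.38e-04). Edem2, a lectin-like mannosidase that marks glycoproteins for degradation, was at 57.2 to 145 CPM with DMSO (median 85.3), 90.2 to 182 with ionomycin (median 142) and 36.9 to 70.7 with TGFb (median 55.0). In every line both TGFb libraries were below both DMSO libraries, and the fall was 0.73 ± 0.12 (adjusted p = 5.65e-05). With ionomycin Edem2 rose by 0.59 ± 0.12 (adjusted p = 0.00104), a call lost with no line term (0.103).

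The related Edem1 and the channel component Derl1 rose with ionomycin and did not pass with TGFb. Derl1 was at 120 to 212 CPM with DMSO (median 189), 213 to 381 with ionomycin (median 261) and 135 to 186 with TGFb (median 171), and rose by 0.66 ± 0.10 (adjusted p = 5.33e-05). The lowest ionomycin library only just cleared the highest DMSO library. Edem1 was at 116 to 184 CPM with DMSO (median 132), 161 to 251 with ionomycin (median 215) and 103 to 162 with TGFb (median 122), and rose by 0.58 ± 0.09 (adjusted p = 7.16e-05). Os9, a lectin of the same route, rose by 0.47 ± 0.13 with ionomycin (adjusted p = 0.00868; 0.136 without PD7591) and was at 0.01 ± 0.13 with TGFb. Syvn1, the Hrd1 ubiquitin ligase, rose with both treatments, by 0.30 ± 0.09 with ionomycin and 0.32 ± 0.09 with TGFb, and the direct comparison gave -0.016 ± 0.089 (adjusted p = 0.886). Both Syvn1 calls were lost without PD7591 (adjusted p = 0.0884 and 0.167) and with summed duplicates (0.157 and 0.115), and the ionomycin call also without PD454 (0.0659) and with library totals (0.0798). Exons of Syvn1 overlap those of Mrpl49. Derl2, whose exons overlap those of Mis12, passed in neither comparison, at 0.16 ± 0.12 in each.

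Neither of the 2 translocon genes passed with ionomycin. Sec61b, a subunit of the channel through which new proteins enter the ER, was at 24.2 to 60.5 CPM with DMSO (median 30.2), 18.02 to 36.2 with ionomycin (median 30.5) and 46.4 to 66.5 with TGFb (median 59.0). Only library 8 (DMSO PD883), 1 of the 4 with lower counts of long transcripts, reached the TGFb range. Sec61b has one of the shorter transcripts of the list. It rose by 0.79 ± 0.15 with TGFb (adjusted p = 3.05e-04), by 0.94 without those 4 libraries (adjusted p = 1.27e-05), and was at -0.27 ± 0.15 with ionomycin (adjusted p = 0.190) and at -0.016 without those 4 libraries. Ssr1, a subunit of the translocon-associated protein complex, was at 300.3 to 371 CPM with DMSO (median 329), 327 to 439 with ionomycin (median 393) and 310.2 to 380 with TGFb (median 335), and passed in neither comparison (0.18 ± 0.09 and -0.01 ± 0.09).

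Setting both comparisons side by side gave 5 patterns. Atf6, Sdf2l1, Dnajc3, Canx, P4hb, Ero1l, Ero1lb, Herpud1, Sel1l and Edem2 were higher with ionomycin and lower with TGFb, 10 of 37 genes, where 5.68% of all genes tested showed this pattern. Dnajb9, Pdia4 and Syvn1 were higher with both (4.78% of all genes). No gene of the list was lower with ionomycin and higher with TGFb (3.90% of all genes) or lower with both (4.52%). A further 11 passed with ionomycin alone, 5 with TGFb alone (Hspa13, Pdia3, Pdia5, Txndc5 and Sec61b) and 8 in neither. Both comparisons use the same DMSO libraries, so a high or low DMSO library moves both values the same way. The direct comparison is the difference between these values, from the same fit of all 18 libraries. The 10 genes were picked by their opposite calls, so it adds no separate support for the pattern. Among them it gave 0.65 ± 0.11 for Dnajc3, 0.66 ± 0.12 for Canx and 0.69 ± 0.10 for P4hb. It gave 1.41 ± 0.10 for Ero1lb, 2.09 ± 0.13 for Atf6, 2.46 ± 0.24 for Ero1l and 3.01 ± 0.17 for Herpud1, and all 10 passed. The 4 genes lower with ionomycin than with TGFb were Sec61b (-1.06 ± 0.16), Txndc5 (-0.60 ± 0.08), Pdia5 (-0.58 ± 0.13) and Hspa13 (-0.42 ± 0.08). The direct calls of Calr (0.39 ± 0.14) and Pdia4 (0.36 ± 0.13) were lost without 1 library, Calr without 3, 4, 11 or 17 (adjusted p 0.0501 to 0.0689) and Pdia4 without 4, 5, 10 or 11 (0.0519 to 0.0770). Both were also lost without PD7591 (0.14 and 0.207) or PD883 (0.0808 and 0.143).

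The ionomycin calls of 12 of the 24 genes held in every alternative: Atf6, Ern1, Hspa5, Hyou1, Dnajb9, Dnajc10, Pdia4, Ero1l, Ero1lb, Sel1l, Edem1 and Derl1. The TGFb calls of 9 of the 18 did: Atf6, Hspa13, Pdia5, Txndc5, Ero1l, Herpud1, Sel1l, Edem2 and Sec61b. Atf6, Ero1l and Sel1l are thus the 3 genes whose opposite calls both held throughout, and none of the 3 genes higher with both did so, the TGFb call of Dnajb9 being lost without PD7591 (adjusted p = 0.0566).

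Complete separation of libraries gave a stricter count. All 6 ionomycin libraries were above all 6 DMSO libraries for 8 genes (4.54% of all genes tested): Atf6, Hyou1, Dnajb9, Dnajc10, Ero1l, Ero1lb, Sel1l and Derl1. Dnajc10 and Derl1 only just separated, and none had all 6 below (2.69%). For TGFb, Pdia5 and Txndc5 were entirely above DMSO (8.21% of all genes) and Herpud1 entirely below (9.41%). In the direct comparison 14 genes were entirely higher with ionomycin (14.7%) and 3 entirely lower (12.3%), the latter being Pdia5, Txndc5 and Sec61b.

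The response to ionomycin was widest in PD7591, the line with the lowest summed level under DMSO. The same DMSO libraries set that level and the fold changes, so the 2 are not independent, and a link between them was not tested. In PD7591, 27 of the 37 genes rose (11.2% of all genes), all 37 log2 fold changes were above 0 and their median was 0.72. In PD883, 14 rose (11.6% of all genes), with 32 values above 0 and a median of 0.39. In PD454, 11 rose (11.7% of all genes), with 25 values above 0 and a median of 0.18. None of the 37 fell in any line. In all, 23 genes had a value above 0 in each of the 3 lines and none had a value below 0 in each. Signs were not counted over all genes, whose medians were -0.032 in PD454, 0.0 in PD7591 and -0.028 in PD883. Hspa5 shows the difference in size, with 0.37 in PD454, 1.24 in PD7591 and 0.86 in PD883, as does Calr with -0.13, 0.88 and 0.33. Atf6 (1.76, 1.45 and 1.66) and Ero1lb (1.08, 0.93 and 0.93) were nearly equal across the lines.

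A joint test that the ionomycin effect was equal in the 3 lines passed for none of the 37 genes after adjustment (edgeR quasi-likelihood, smallest adjusted p = 0.0536), where 2.59% of all genes passed. At an unadjusted p under 0.05 it passed for 12 genes, 32.4% of the list against 20.3% of all genes. With DESeq2 it passed after adjustment for 7, Hspa5, Pdia4, Calr, Hsp90b1, Xbp1, P4hb and Sdf2l1, against 8.54% of all genes with an adjusted p. A difference between the lines in these genes is thus not settled by these tests.

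**Figure D4:**
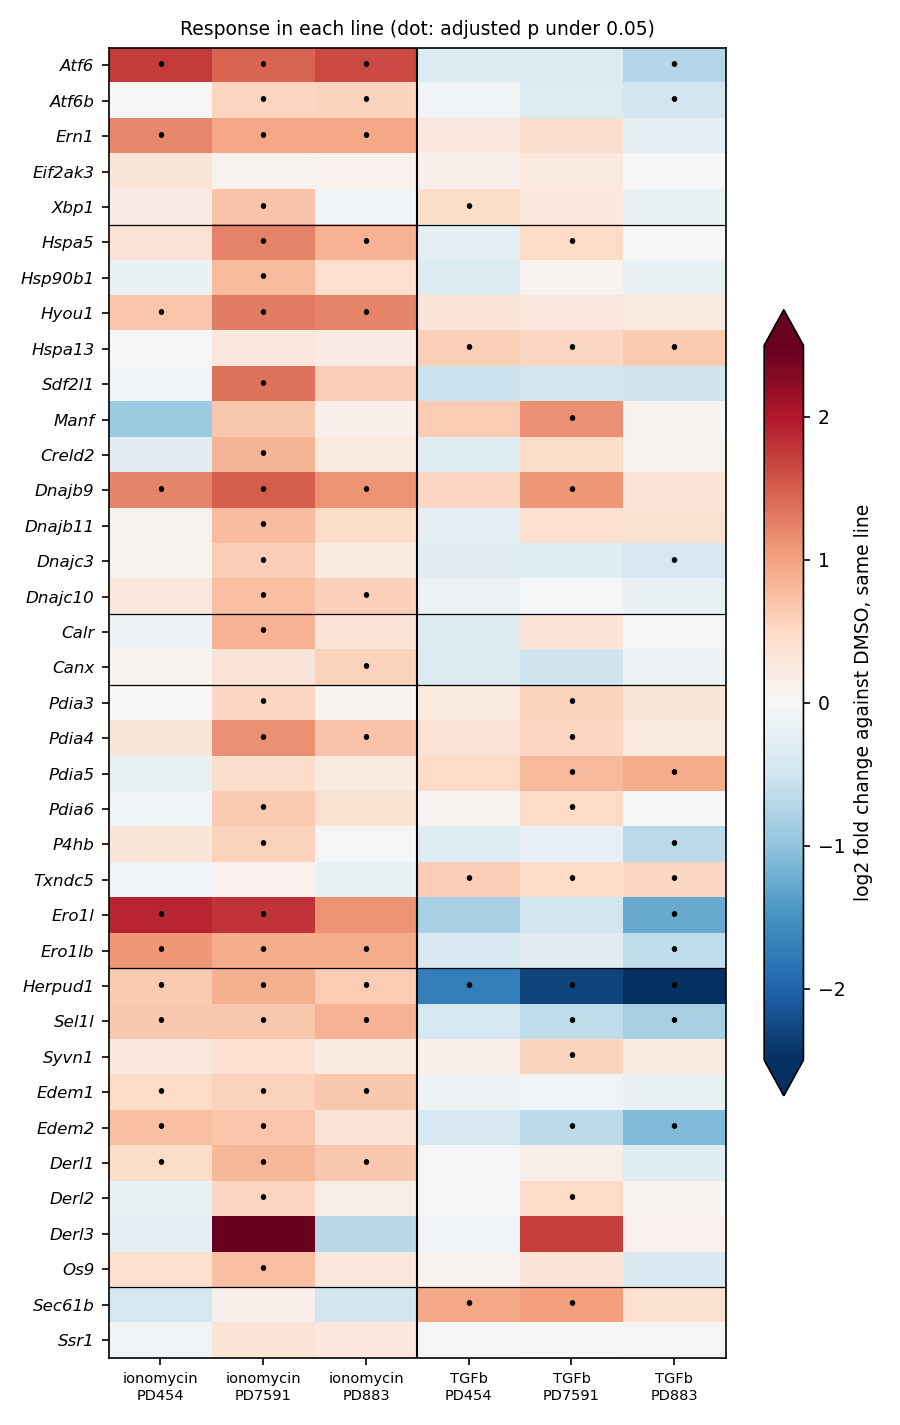
Log2 fold change against DMSO of the same line (colour; values past the ends of the scale take the end colour) for each of the 37 genes (rows) in each treatment and line (columns); a dot marks an adjusted p under 0.05, horizontal lines separate the roles. Red fills the PD7591 column for ionomycin, with 27 dots, and Herpud1 is the darkest blue in all 3 TGFb columns.

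With TGFb the direction of the calls varied by line. In PD454, 4 genes rose and 1 fell (14.8% and 16.1% of all genes). In PD7591, 12 rose and 3 fell (17.7% and 20.1%). In PD883, 3 rose and 9 fell (18.4% and 20.0%). Over the 3 lines, 11 genes had a value above 0 in each and 13 a value below 0 in each. These signs too were not counted over all genes. The joint test of equal TGFb effects passed for Herpud1 (adjusted p = 0.0193), where 5.26% of all genes passed. Herpud1 fell in every line, with -1.72 in PD454, -2.31 in PD7591 and -2.91 in PD883. The joint test did not pass without library 7 (DMSO PD883, adjusted p = 0.0546) or without library 12 (TGFb PD883, 0.0525). At an unadjusted p under 0.05 it passed for 5 genes of the list (21.0% of all genes), Hspa5, Herpud1, Xbp1, P4hb and Dnajb11. With DESeq2 it passed for Herpud1 and Derl1 (9.80% of all genes with an adjusted p).

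Genes of the same routes outside the list were counted in the same way. Over all genes tested, 17.2% rose and 16.1% fell with ionomycin, and 24.3% rose and 26.5% fell with TGFb. These shares are the background for the counts of every outside list, and several of the counts lie near them. The outside lists were not tested as sets. Of 11 other transcription regulators of the stress response, 7 rose with ionomycin and none fell. Atf4, the factor translated when Perk is active, rose from 228 to 437 CPM with DMSO (median 281) to 361 to 704 with ionomycin (median 582), by 0.81 ± 0.15 (adjusted p = 5.41e-04). Its ranges overlapped. Ddit3, which encodes the factor Chop, was at 6.66 to 17.5 CPM with DMSO (median 10.3) and 20.1 to 122 with ionomycin (median 38.9), with no overlap, and rose by 2.04 ± 0.30 (adjusted p = 5.85e-05). Trib3, a pseudokinase gene and target of these factors, rose by 1.86 ± 0.19, and Mbtps2, the protease that cuts Atf6, by 0.65 ± 0.09. With TGFb, 1 of these 11 rose, the ER-bound factor Creb3l1 (2.71 ± 0.34), and 2 fell, Trib3 (-1.53 ± 0.19) and Mbtps2 (-0.34 ± 0.09). Atf4 and Ddit3 did not pass with TGFb (-0.24 ± 0.15 and -0.28 ± 0.30).

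Among 16 other translocon, signal peptidase and receptor genes, 6 rose with ionomycin and none fell, and those with the smallest adjusted p were Ssr3 (0.29 ± 0.08) and Spcs3 (0.30 ± 0.09). With TGFb, 8 rose and 1 fell, the last being Tram1 (-0.52 ± 0.16). Of 18 genes of N-glycosylation, 6 rose with ionomycin and none fell, among them Uggt1, the glucosyltransferase that senses misfolded glycoproteins (0.52 ± 0.11), and Prkcsh, a glucosidase subunit (0.54 ± 0.10). With TGFb, 5 rose and 4 fell, Man1a, a Golgi mannosidase, among the latter (-1.93 ± 0.25).

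Of 23 other redox and folding genes tested, 6 rose and 1 fell with ionomycin and 7 rose and 1 fell with TGFb. The prolyl isomerase genes Fkbp7 (2.49 ± 0.18) and Fkbp10 (1.66 ± 0.17), whose products reside in the ER, rose with TGFb. Of 19 other degradation genes, 6 rose and 2 fell with ionomycin, Herpud2 (0.79 ± 0.13) among the first and Rnf139 (-0.44 ± 0.10) and Vcp (-0.27 ± 0.09) the second. With TGFb, 5 rose and 2 fell. Of 23 genes of transport between ER and Golgi, 3 rose and none fell with ionomycin, and 7 rose and 3 fell with TGFb.

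Of 17 cytosolic chaperone genes, 1 rose with ionomycin, Hsp90aa1 (0.47 ± 0.12), and 6 fell, among them Hsp90ab1 (-0.41 ± 0.09) and Hsph1 (-0.56 ± 0.12). With TGFb, 6 rose and 4 fell. Of 15 tested genes for ER calcium pumps, channels and sensors, 7 rose and 1 fell with ionomycin. The pump genes Atp2a2 (0.72 ± 0.090) and Atp2a3 (4.45 ± 0.30) were among those that rose, and both fell with TGFb (-0.67 ± 0.090 and -3.70 ± 0.33). The ER calcium-binding gene Rcn1 fell by 1.20 ± 0.22 with ionomycin. With TGFb, 6 of the 15 rose, Rcn3 by 4.21 ± 0.44, and 4 fell.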

How the data were processed

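The authors deposited raw read counts per gene symbol for 18 libraries (3 lines, 3 treatments, 2 libraries per group). The submitters' processing notes name CASAVA, Trimmomatic 0.32, STAR, featureCounts and mm10; neither their settings nor the strand mode is given in the sources used here. The members and gene lists were chosen with earlier results of these data known.

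These counts were tested with edgeR 4.0.16 (R 4.3.3) after TMM scaling, on the 13827 genes that filterByExpr retained given the 9 groups. Treatments were compared with robust quasi-likelihood F tests in a model of treatment and line; Benjamini-Hochberg adjustment ran over all 13827 genes, and an adjusted p under 0.05 was called. Effects within lines, and the joint test on 2 degrees of freedom, were taken from a fit of the 9 group means. The SE is the log2 fold change divided by the square root of F. Library totals of 17591005 to 37894692 counts limit the genes of few counts, such as Derl3. The libraries of a group are numbered as in the labels; the numbers differ between groups and pair nothing.

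All 37 genes are named. Per comparison and role, the 2 genes with the smallest p and the gene with the largest change, and genes with opposite calls or line dependence, are given with levels, fold changes and adjusted p; of the other lists only part of the genes with the smallest adjusted p are named, besides Atf4, Ddit3, Atp2a2 and Atp2a3. Exon lengths and coordinates came from GENCODE M21 (GRCm38), promoters from RefSeq (GRCm38.p6). Alternatives were RLE factors, library totals, no filter, DESeq2 1.42.0, limma-voom (limma 3.58.1), summed duplicates, a mean per group in place of the additive model, leaving out the line term, the libraries of a contrast alone, leaving out each line, each library, 4 libraries or Rn45s, and an offset for transcript length, the last added after seeing the data. The 26 entries with names turned into dates were tested and are not named.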

Additional observations from a re-analysis of the deposited data

Results flagged for a closer look

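The fall of Herpud1 with TGFb differed between the lines in the joint test (edgeR quasi-likelihood, adjusted p = 0.0193), from -1.72 in PD454 to -2.91 in PD883. In the other cases both libraries of a treatment lay above both DMSO libraries in one line and below them in another, and the joint test of equal effects in the 3 lines did not pass. Manf with ionomycin was at 0.68 in PD7591 and -0.93 in PD454, a difference of 1.61 on the log2 scale (adjusted p = 0.154). Sec61b with ionomycin was at 0.12 in PD7591 and -0.44 in PD454, a difference of 0.56 (0.413), and Txndc5 at 0.10 in PD7591 and -0.17 in PD883, a difference of 0.27 (0.521). Xbp1 with TGFb was at 0.46 in PD454 and 0.27 in PD7591, which was 0.61 and 0.43 above the -0.16 in PD883 (0.173). Dnajb11 with TGFb was at 0.42 in PD7591 and -0.23 in PD454, a difference of 0.65 (0.207), and Derl1 at 0.16 in PD7591 and -0.31 in PD883, a difference of 0.47 (0.270).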

How the results depend on the processing

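The 24 ionomycin calls became 14 with no line term, 13 with summed duplicates, 14 without PD7591 and 19 to 24 without 1 library. Over all genes, 2372 of 13827 rose in the main fit, 1183 with no line term and 1106 with summed duplicates. Without PD7591, 1738 of 13517 rose, and without 1 library 2075 to 2614 (14227 to 14284 tested). Of the 24 genes, 18 kept their call without each library and 12 in every alternative. The 18 TGFb calls became 10 with summed duplicates and 15 to 20 without 1 library. Over all genes, 3356 rose and 3659 fell in the main fit, and 2116 and 2530 with summed duplicates. Without 1 library, 3156 to 3800 rose and 3326 to 3698 fell. Of the 18 genes, 15 kept their call without each library and 9 in every alternative. The 26 direct calls became 22 with no line term, 24 with summed duplicates or without PD7591, 29 with a mean per group and 25 to 28 without 1 library. Over all genes, 4287 were higher and 4409 lower in the main fit. With no line term these were 3400 and 3271, with summed duplicates 3491 and 3285. Without PD7591 they were 3601 and 3644, with a mean per group 4515 and 4712. Without 1 library they were 4041 to 4362 and 4221 to 4640. Line dependence was called for 3 genes (ionomycin) with no filter and for 7 (ionomycin) and 2 (TGFb) with DESeq2. Without 1 library it was called for 0 to 2 in either treatment. Over all genes, 2.59% (ionomycin) and 5.26% (TGFb) passed in the main fit, and 8.54% and 9.80% with DESeq2. The shares with no filter and without 1 library are not given here. Scaling by library totals moved the median of all genes to -0.12 for ionomycin against DMSO and left 16 ionomycin calls, all higher. Over all genes, 1936 of 13827 then rose and 2995 fell. The cause of these changes was not tested. Single libraries could not be paired between treatments because the groups share no library numbers. Every line had all 3 treatments, and the line term and the summed duplicates compare treatments within the 3 lines.

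The signs that changed belonged to genes that did not pass. With ionomycin, Manf was at 0.0032 with RLE factors, 0.0016 with no filter, 0.0038 with DESeq2, 0.38 without PD454, 0.27 without the 4 libraries, 0.029 with the length offset and -0.20 to 0.19 without 1 library; Txndc5 was at 0.0053 without PD883 and Derl3 at -0.41 without PD7591. With TGFb, Os9 was at -0.0025 with library totals, -0.051 with no line term, -0.015 with summed duplicates, -0.042 without PD454, -0.14 without PD7591, -0.021 with the length offset and -0.031 to 0.14 without 1 library. Ssr1 was at 0.0010 without PD454, 0.0024 without PD7591, 0.029 without the 4 libraries, 0.11 with the length offset and -0.014 to 0.060 without 1 library. Calr was at 0.13 without PD454, 0.076 without the 4 libraries and -0.084 to 0.12 without 1 library, and Derl1 at 0.077 without PD883, 0.040 without the 4 libraries and -0.075 to 0.0089 without 1 library. Creld2 was at -0.023 with no line term, -0.10 without PD7591, -0.011 with the length offset and -0.0087 to 0.21 without 1 library, Hspa5 at -0.10 without PD7591, and Derl3 at -0.069 to 0.71 without 1 library. Of ionomycin against TGFb, Derl2 was at -0.063 with library totals, -0.0015 with summed duplicates, -0.0063 with these libraries alone, -0.0092 without PD7591, -0.026 without PD883, -0.14 with the length offset and -0.061 to 0.047 without 1 library. Derl3 was at -0.062 with library totals, -0.054 with no line term, -0.062 with a mean per group, -0.072 with these libraries alone, -0.47 without PD7591, -0.26 without the 4 libraries and -0.23 to 0.39 without 1 library. Eif2ak3 was at -0.030 with library totals, -0.016 without PD454, -3.2e-06 without PD883, -0.021 without the 4 libraries and -0.019 with the length offset. Syvn1 was at 0.0014 with no filter, 0.0056 with summed duplicates, 0.069 without PD7591 and -0.062 to 0.0069 without 1 library, Xbp1 at -0.094 without PD7591 and -0.033 to 0.16 without 1 library, and Ssr1 at -0.026 with the length offset.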
